A study of Mus musculus with 6 samples.

Results

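The genes described here encode the receptor of interferon-γ (IFNγ) and signalling factors of the JAK, STAT, IRF and SOCS families. They are the receptor chains Ifngr1 and Ifngr2, the kinases Jak1 and Jak2, the transcription factors Stat2, Stat3, Irf1 and Irf9, and the inhibitor Socs1. They were taken by symbol from the deposited tables, and all 9 were found among 55487 genes. The 6 libraries were made from mRNA-enriched RNA of primary mouse renal tubular epithelial cells, the cells that line the kidney tubule. In the 3 control libraries the cells carried the genotype label wild type and had received a control adenovirus. In the 3 knockout libraries they were labelled ELF3 knockout after infection with AdvCre, an adenovirus that expresses Cre recombinase, to delete the gene of the epithelial ETS transcription factor ELF3. All 6 were labelled as stimulated with TNFα and IFNγ and as batch 1, so each value is a level under both cytokines. The labels give neither the dose and time of the cytokines nor the number of mice, the promoter of the Cre or the deleted part of the gene. Whether replicates are separate cultures is not stated either, so the p-values measure the spread between these libraries, which may be technical.

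IFNγ binds IFNGR1, and IFNGR2 joins it to form the working receptor. JAK1, held by IFNGR1, and JAK2, held by IFNGR2, then start a phosphorylation signal that ends at the gamma-activated site (GAS) in genes such as Irf1. Type I interferons act through STAT2 and IRF9, whose complex binds the interferon-stimulated response element (ISRE), and cytokines of the interleukin-6 family act mainly through STAT3. SOCS1 is made in response to interferon and blocks the kinases. In tubular epithelium IFNγ is known to raise MHC molecules and chemokines.

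Sequence upstream of the start site is shown for the genes of the group whose window held a GAS or an ISRE, since these are the elements that the group's own factors bind. The windows are RefSeq promoters on GRCm38.p6 (mm10), from 250 bases before the start site to 50 after it, and capitals mark the GAS and ISRE matches only.
Irf1, chr11:53769878-53769977, plus strand: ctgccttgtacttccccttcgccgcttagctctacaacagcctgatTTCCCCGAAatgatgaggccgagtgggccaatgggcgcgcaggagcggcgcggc
Socs1, chr16:10785562-10785661, minus strand: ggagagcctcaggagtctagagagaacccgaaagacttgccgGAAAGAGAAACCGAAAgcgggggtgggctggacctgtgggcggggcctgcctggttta
Stat2, chr10:128270248-128270347, plus strand: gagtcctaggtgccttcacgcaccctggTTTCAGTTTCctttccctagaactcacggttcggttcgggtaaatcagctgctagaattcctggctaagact
The GAS was searched as TTCNNNGAA, and the ISRE as GAAA followed after 2 bases of any kind by a second GAAA, on both strands. Irf1 had a GAS from 90 to 82 bases before its start site at position 53770014. Its other window, with the start site at 53770473, held neither element. Socs1 had a pair of overlapping ISRE matches that began 83 and 77 bases before its start site. Stat2 had an ISRE on the minus strand, from 222 to 213 bases before its start site. The core of ETS factors, searched as CCGGAA, occurred in the windows of Socs1, with 3 matches, and of Stat2, with 1. A Socs1 match that began 86 bases before the start shared 3 bases with the first ISRE. Of 32851 windows in the RefSeq table, 8.30% held the GAS, 3.44% the ISRE and 14.9% the ETS core, and the windows of Ifngr1, Ifngr2, Jak1, Jak2, Stat3 and Irf9 held none of the 3. A match describes these letters and does not show a site in use.

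The libraries held between 8961779 and 10774195 estimated counts. Elf3 itself, the check of the labels, stood at 18.9, 24.3 and 22.8 CPM in the controls and at 4.26, 3.01 and 2.03 CPM in the knockout, a fall of 7.17-fold. CPM are counts scaled to library size after TMM normalisation, and fold changes and adjusted p-values come from the quasi-likelihood test of edgeR over all 13755 genes that passed the count filter, with Benjamini-Hochberg adjustment at 0.05. All 9 genes passed that filter. Of them 2 rose, 4 fell and 3 did not pass. Over all genes tested 36.6% were called, 18.3% in each direction. The median log2 fold change was 0.05 for the 9 genes and -0.01 over all genes tested, and the median of its size without sign was 0.40 and 0.20. The CPM of the groups did not overlap for 6 of the 9, with 2 higher and 4 lower, and for 46.7% of all genes tested, 23% higher and 23.6% lower. In RNA of whole cultures, fewer cells of a type and less RNA per cell cannot be told apart.

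**Figure D1:**
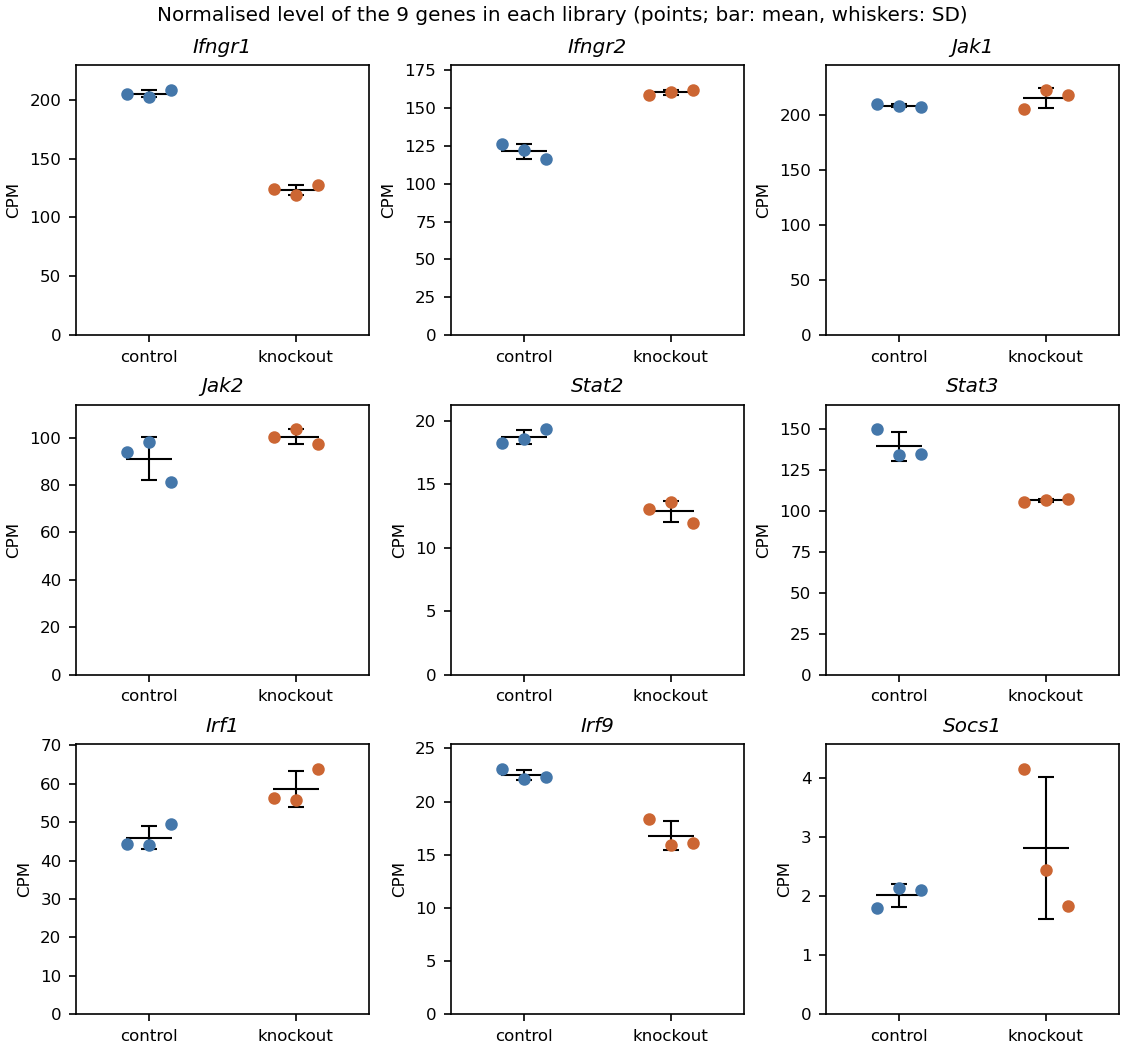
TMM-normalised CPM (vertical axes, from 0) of the 9 genes in the 3 control and 3 knockout libraries, with the group mean as a bar and the SD as whiskers. The groups stand apart for Ifngr1, Ifngr2, Stat2, Stat3, Irf1 and Irf9, and overlap for Jak1, Jak2 and Socs1, where a single knockout library reached 4.15 CPM.

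The receptor chains went in opposite directions. Ifngr1 (ENSMUSG00000020009, mm10 chromosome 10, 19591949 to 19610229, plus strand), which encodes the chain that binds IFNγ, was at 205, 202 and 208 CPM in the controls and at 125, 119 and 127 CPM in the knockout. Every knockout library was far below every control. The fall was 1.66-fold, with a log2 fold change of -0.73 ± 0.05 (SE, n = 3 libraries a group, adjusted p = 9.83e-13, edgeR). Ifngr2 (ENSMUSG00000022965, chromosome 16, 91547072 to 91565623, plus strand), the partner chain that brings in JAK2, was at 126, 122 and 116 CPM in the controls and at 159, 161 and 162 CPM in the knockout. All 3 knockout libraries lay above all 3 controls and close to each other. The rise was 1.32-fold, a log2 fold change of 0.40 ± 0.05 (adjusted p = 6.44e-07, edgeR).

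TPM, which correct for transcript length, allow both chains to be set side by side. Ifngr1 averaged 193 ± 3.55 TPM in the controls and 116 ± 4.08 in the knockout (SD, n = 3), and Ifngr2 averaged 61.4 ± 6.39 and 80.7 ± 8.50. Ifngr2 reached 0.312, 0.362 and 0.284 of the Ifngr1 level in the control libraries and 0.659, 0.673 and 0.749 in the knockout libraries. The ratio was higher in every knockout library than in every control, by 2.18-fold. For the log2 ratio a two-sided exact permutation test returned p = 0.1, its lower limit with 3 libraries a group, or 0.3 when adjusted over the 3 ratios examined. By TPM, Ifngr1 transcripts outnumbered those of Ifngr2 in all 6 libraries. In estimated counts, which are not corrected for length, the ratio was 0.616, 0.606 and 0.558 in the controls. It was 1.27, 1.35 and 1.27 in the knockout, so this order in the knockout rests on the length correction.

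**Figure D2:**
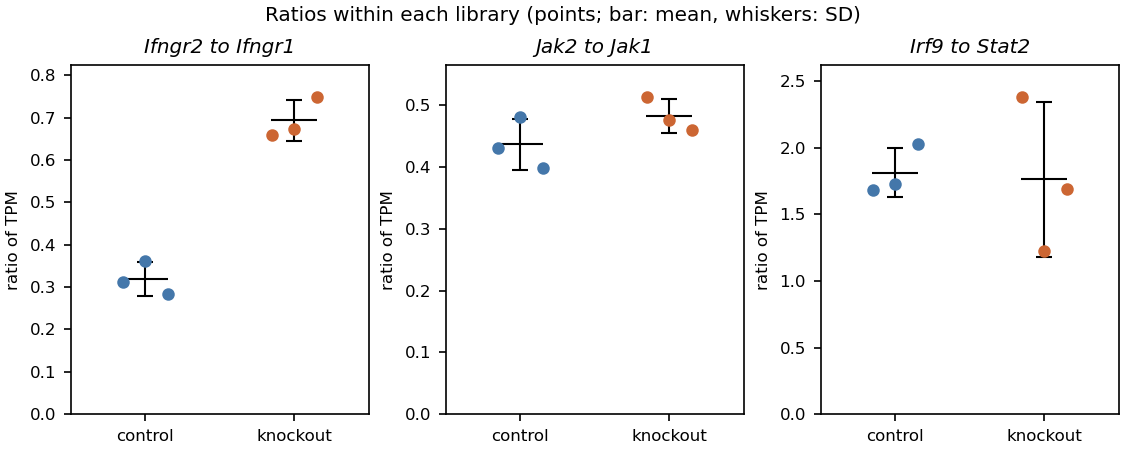
Ratio of TPM within each library (vertical axes, from 0) for 3 pairs of partners, with the mean as a bar and the SD as whiskers. The Ifngr2 to Ifngr1 ratio lies at 0.284 to 0.362 in the controls and at 0.659 to 0.749 in the knockout, while the groups overlap for Jak2 to Jak1 and for Irf9 to Stat2.

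The receptor-bound kinases did not pass the test. Jak1 (ENSMUSG00000028530, chromosome 4, 101152367 to 101265282, minus strand), a kinase shared by the receptors of all interferons, was at 210, 208 and 207 CPM in the controls against 206, 223 and 218 in the knockout. The lowest knockout library was below the controls and the other 2 above them. Its log2 fold change was 0.05, with a 95% interval of -0.05 to 0.15 (adjusted p = 0.484, edgeR), so that a change of the size seen for Ifngr1 or Ifngr2 lies outside the interval. Jak2 (ENSMUSG00000024789, chromosome 19, 29251828 to 29313080, plus strand), which also serves hormone and growth factor receptors, was at 93.9, 98.3 and 81.1 CPM in the controls against 100, 104 and 97.3 in the knockout. The lowest knockout library fell inside the control range and the other 2 lay above it, while in TPM all 3 lay above the controls. The log2 fold change was 0.14 ± 0.07 (SE, adjusted p = 0.11, edgeR), and without control replicate 2 it was 0.20 and passed (adjusted p = 0.047). Without control replicate 3, the lowest control, it was 0.067 (adjusted p = 0.474). The Jak2 to Jak1 ratio in TPM averaged 0.437 ± 0.042 in the controls and 0.484 ± 0.027 in the knockout (SD, n = 3; two-sided exact permutation p = 0.3, adjusted over 3 ratios 0.45).

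Both STAT genes of the group were lower in the knockout. Stat3 (ENSMUSG00000004040, chromosome 11, 100885098 to 100939540, minus strand), the factor downstream of interleukin-6 family cytokines, was at 150, 134 and 135 CPM in the controls and at 106, 107 and 107 CPM in the knockout. The knockout libraries hardly differed from each other and lay below all controls. The fall was 1.31-fold, a log2 fold change of -0.39 ± 0.06 (SE, adjusted p = 3.39e-06, edgeR). Stat2 (ENSMUSG00000040033, chromosome 10, 128270559 to 128292849, plus strand), a factor of the type I interferon response, was at 18.3, 18.6 and 19.3 CPM in the controls and at 13, 13.6 and 12 CPM in the knockout. All knockout libraries were below all controls by CPM, with a fall of 1.45-fold and a log2 fold change of -0.54 ± 0.12 (adjusted p = 0.000676, edgeR). On the authors' TPM scale the groups overlapped, at 9.75, 10.3 and 7.69 TPM in the controls and 5.88, 9.56 and 7.16 TPM in the knockout. Limma on log2(TPM + 1) gave Stat2 -0.28 ± 0.19 (SE, adjusted p = 0.365). The direction was thus shared by both deposited scales and the call was not.

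The interferon regulatory factors of the group diverged. Irf1 (ENSMUSG00000018899, chromosome 11, 53770014 to 53778374, plus strand), an early target of IFNγ and itself an activator of MHC class I genes, was at 44.4, 44.1 and 49.5 CPM in the controls against 56.3, 55.8 and 63.9 in the knockout. The knockout libraries were all higher, with a rise of 1.28-fold and a log2 fold change of 0.35 ± 0.08 (SE, adjusted p = 0.00048, edgeR). Irf9 (ENSMUSG00000002325, chromosome 14, 55603571 to 55610030, plus strand), the DNA-binding partner of STAT2, was at 23.1, 22.2 and 22.3 CPM in the controls and at 18.4, 15.9 and 16.1 CPM in the knockout. All knockout libraries were lower, with a fall of 1.34-fold and a log2 fold change of -0.43 ± 0.11 (adjusted p = 0.00269, edgeR). On log2(TPM + 1) both kept their direction and did not pass by limma, with adjusted p = 0.051 for Irf1 and 0.0544 for Irf9. The Irf9 to Stat2 ratio in TPM averaged 1.81 ± 0.18 in the controls and 1.76 ± 0.58 in the knockout, and the groups overlapped (SD, n = 3; two-sided exact permutation p = 0.8, also when adjusted over 3 ratios).

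In GENCODE M21, 4 of the 9 genes share exonic bases with a neighbour that was also tested, and no source used here states the strand setting of the counting. Irf9 shares 123 bases with Rnf31 on the same strand, which averaged 26.4 and 27.6 CPM in control and knockout and did not pass (adjusted p = 0.681, edgeR). Irf1 shares 135 bases with the gene model Gm17334 on the opposite strand, which did not pass (adjusted p = 0.414). Stat3 shares 72 bases with Stat5a and Jak1 shares 4 with Raver2, in both cases on opposite strands. The part of these overlaps in the values was not tested.

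Socs1 (ENSMUSG00000038037, chromosome 16, 10782240 to 10785536, minus strand), the feedback inhibitor of JAK kinases, had the lowest level of the group. It had 19, 22 and 19 estimated counts in the controls against 37, 26 and 19 in the knockout, or 1.79, 2.14 and 2.10 CPM against 4.15, 2.44 and 1.83. A single knockout library was high and another lay within the control range. The log2 fold change was 0.46, with a 95% interval of -0.22 to 1.15 (adjusted p = 0.295, edgeR), and without knockout replicate 1 it was 0.10 (adjusted p = 0.864).

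**Figure D3:**
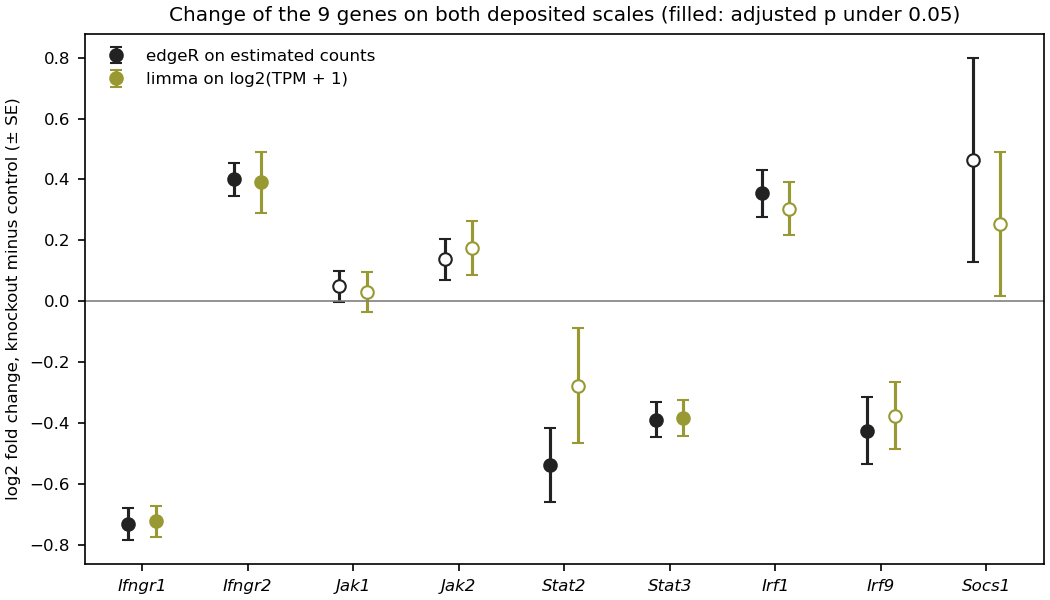
Log2 fold change of knockout minus control (vertical axis) with its SE for the 9 genes, by edgeR on estimated counts and by limma on log2(TPM + 1), where filled points have an adjusted p under 0.05. Ifngr1, Ifngr2 and Stat3 are filled on both scales, and Stat2, Irf1 and Irf9 on the counts only.

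By length-corrected level the group spanned a wide range. In the controls Ifngr1 led at 193 TPM, followed by Jak1 at 75.2, Ifngr2 at 61.4, Stat3 at 59.1, Irf1 at 43.1, Jak2 at 32.9, Irf9 at 16.6, Stat2 at 9.25 and Socs1 at 1.31 TPM. Of the neighbours in that order, Ifngr2 and Stat3 overlapped over the 3 libraries and the others did not. In the knockout the order of means was Ifngr1 at 116, Ifngr2 at 80.7, Jak1 at 76.9, Irf1 at 53.5, Stat3 at 45, Jak2 at 37.1, Irf9 at 12.6, Stat2 at 7.53 and Socs1 at 1.82 TPM. Irf1 thus stood above Stat3 in the knockout and below it in the controls, and Ifngr2 and Jak1 overlapped.

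Of the JAK and STAT genes outside the group, Tyk2, the kinase of the type I interferon receptor, rose 1.14-fold (adjusted p = 0.0276, edgeR). Stat5a, a factor downstream of hormone and cytokine receptors, fell 1.63-fold (adjusted p = 0.00335) and Jak3, the kinase of lymphoid cytokine receptors, fell 1.21-fold (adjusted p = 0.0433). Stat5a and Jak3 had fractional counts in some libraries. Tyk2 lost its call under DESeq2 (adjusted p = 0.0535) and by edgeR with library totals in place of TMM (adjusted p = 0.0566). The call of Tyk2 was also lost without control replicate 2, control replicate 3 or knockout replicate 3 (0.0519 to 0.164). Jak3 lost its call under DESeq2 (adjusted p = 0.107) and without any 1 library other than knockout replicate 1 (0.0784 to 0.233), and none of these 3 genes passed by limma on log2(TPM + 1). The type I interferon receptor genes did not pass, with log2 fold changes of 0.04 for Ifnar1 (95% interval -0.07 to 0.16) and 0.05 for Ifnar2 (-0.16 to 0.26).

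Of 10 other IRF genes and IRF2-binding partners, 2 rose, 1 fell and 7 did not pass. The share called was 30%, beside 36.6% over all genes tested. Irf2bp2 and Irf2bpl, members of the family that binds IRF2, rose 1.67-fold and 1.29-fold. Irf3, the factor that cytosolic nucleic acid sensors activate, fell 1.35-fold from 45.8 ± 3.76 CPM (SD, n = 3, adjusted p = 0.000125, edgeR). By limma on log2(TPM + 1) Irf3 did not pass (adjusted p = 0.051). Exons of Irf3 overlap those of Bcl2l12 and exons of Irf2bp2 those of Gm26759, both on opposite strands. Without knockout replicate 3 the number called was 5 in place of 3.

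Negative regulators of the pathway other than Socs1 were called in 6 of 17 cases, 5 higher and 1 lower. Socs3, the inhibitor that STAT3 induces, rose from 15.6, 12.6 and 16.8 CPM to 27.2, 28 and 27.5, or 1.84-fold (adjusted p = 1.99e-07, edgeR). Cish, a target of STAT5, rose 1.45-fold, and Socs5 rose 1.32-fold. Socs5 did not pass by limma on log2(TPM + 1) (adjusted p = 0.0804). Ptpn6, which encodes the phosphatase SHP-1, fell 1.99-fold, from 14.4 ± 1.38 to 7.26 ± 0.03 CPM (SD, n = 3, adjusted p = 2.81e-06). The share called, 35.3%, was close to the 36.6% over all genes tested. Of 5 coactivators, Ep300 rose 1.13-fold and 4 did not pass. Ep300 did not pass without control replicate 2 or 3 or without knockout replicate 2 or 3 (adjusted p = 0.0561 to 0.0903), and without knockout replicate 1 the number called was 2.

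**Figure D4:**
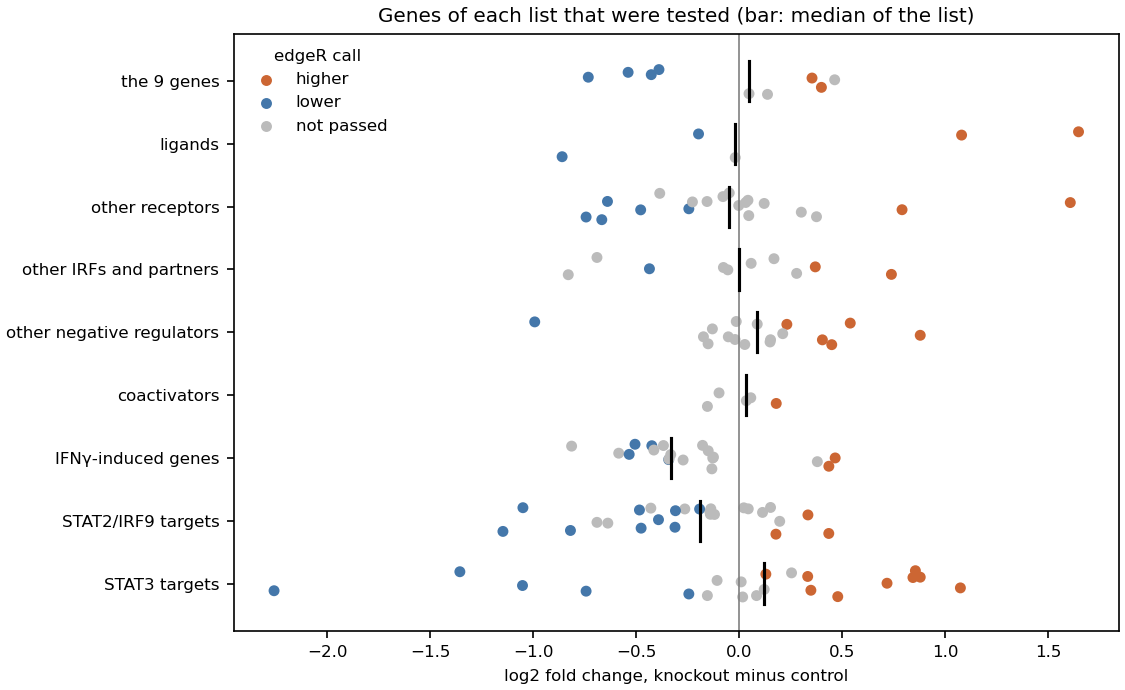
Log2 fold change of knockout minus control (horizontal axis) for each tested gene of the group and of 8 further lists, coloured by the edgeR call, with the list median as a bar. Most lists hold genes on both sides of 0, and the medians of the IFNγ-induced genes and the STAT2/IRF9 targets are -0.33 and -0.19.

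Genes known to respond to the factors of the group were counted next. Of 27 listed IFNγ-induced genes, among them targets of IRF1, 19 were tested, and 2 rose, 4 fell and 13 did not pass, with a median log2 fold change of -0.33. The mean was under 5 CPM in the controls for 14 of the 27, among them the MHC class II activator Ciita at 1.32 ± 0.97 CPM. Irgm1, an interferon-inducible GTPase, rose 1.38-fold from 206 ± 11.1 CPM, and the peptide transporter gene Tap1 rose 1.35-fold. Tap1 did not pass by limma on log2(TPM + 1) (adjusted p = 0.0626). The adhesion molecule gene Icam1 fell 1.42-fold and the chemokine gene Cxcl10 fell 1.45-fold, from 12.5 ± 0.88 to 8.69 ± 0.965 CPM (SD, n = 3). Tap1 exons overlap those of Psmb9 and Icam1 exons those of Gm47079, on opposite strands. The share called was 31.6%, beside 36.6% over all genes tested.

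Of 31 listed targets of STAT2 and IRF9, 25 were tested, and 9 fell, 3 rose and 13 did not pass. The median log2 fold change was -0.19. The share called was 48%, beside 36.6% over all genes tested, where 18.3% were called in each direction. Trim25, a ubiquitin ligase of antiviral sensing, fell 1.39-fold from 78.1 ± 2.71 CPM, and Bst2, the tetherin that holds budding virus, fell 1.40-fold from 39.7 ± 0.96 CPM. Parp14 fell 1.31-fold, and the nucleotide hydrolase gene Samhd1 rose 1.35-fold. In this list 12 genes were called with all libraries, 7 without control replicate 1 and 6 without control replicate 2, and limma on log2(TPM + 1) called 4.

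Listed targets of STAT3 were called in 14 of 21 tested cases, 9 higher and 5 lower, a share of 66.7% beside 36.6% over all genes tested, with a median log2 fold change of 0.12. Ccnd1, the cyclin of early G1, rose 2.11-fold, Vegfa 1.81-fold and the kinase gene Pim3 1.80-fold. Lcn2, an acute-phase protein that binds siderophores, fell 4.78-fold. Exons of Ccnd1 overlap those of the protein-coding gene LTO1 on the opposite strand, which rose 1.86-fold. These genes also answer to other factors, and the lists share Socs3, Osmr, Il6st, Il4ra, Irf7 and Usp18 with each other or with the lists above.

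Ligands and receptors upstream of STAT3 moved unequally. Ifng had 0 counts in all 6 libraries, as had 8 other ligand genes of 16 listed. Lif, a cytokine of the interleukin-6 family, was at 102, 104 and 99.1 CPM in the controls against 199, 217 and 229 in the knockout. All knockout libraries stood far above the controls, with a rise of 2.11-fold (adjusted p = 6.8e-16, edgeR). Il11, of the same family, rose 3.13-fold from 2.53 ± 0.455 CPM (SD, n = 3), while Clcf1 fell 1.15-fold and Cntf 1.81-fold. By limma on log2(TPM + 1) Clcf1 did not pass (adjusted p = 0.0796). Cntf shares exons with Zfp91 on the same strand and lost its call under DESeq2 (adjusted p = 0.0891) and without any 1 of the 6 libraries (0.0582 to 0.115).

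Of 24 other receptor chains 19 were tested, and 5 fell, 2 rose and 12 did not pass. The share called, 36.8%, was practically that over all genes tested. Osmr, the oncostatin M receptor chain, was at 35.7, 36.1 and 36.6 CPM in the controls against 22.7, 19.7 and 22.4 in the knockout, a fall of 1.67-fold (adjusted p = 1.57e-07, edgeR). Il6st, which encodes the shared signalling chain gp130, fell 1.18-fold from 292 ± 3.98 to 246 ± 18.9 CPM, and Lifr, the receptor of LIF, fell 1.59-fold from 12.7 ± 1.17 to 7.93 ± 2.11 CPM. These 2 genes were singled out after their values were seen, and neither passed by limma on log2(TPM + 1) (adjusted p = 0.0754 for Il6st and 0.128 for Lifr). Cntfr, the chain specific to ciliary neurotrophic factor, rose 3.05-fold from 8.94 ± 0.42 CPM. Outside this family, the growth hormone receptor gene Ghr fell 1.56-fold and Il13ra1 fell 1.39-fold.

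**Figure D5:**
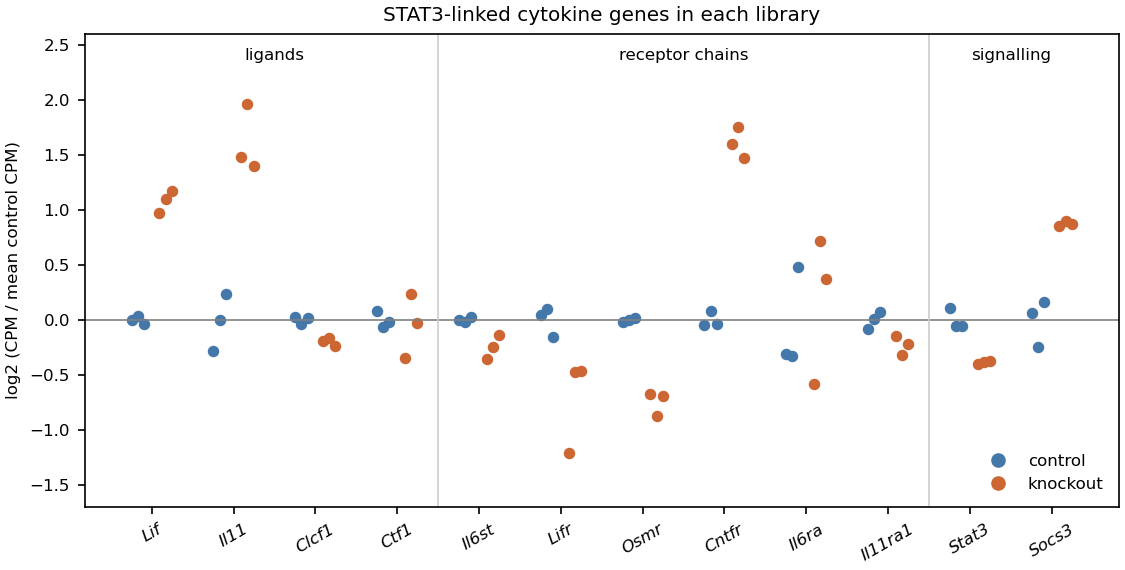
Log2 of CPM relative to the control mean (vertical axis) in each library for ligands, receptor chains and signalling genes of the interleukin-6 family, picked for display after their values were seen. Lif, Il11, Cntfr and Socs3 are higher in all 3 knockout libraries, and Osmr, Lifr, Il6st, Stat3, Clcf1 and Il11ra1 are lower in all 3. Of these, Il11ra1 did not pass (adjusted p = 0.243, edgeR).

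Markers were checked against the label of the cells. Of 22 tubule markers 16 were tested, with a summed level of 4967 to 5159 CPM in the controls and 6566 to 6688 in the knockout. The epithelial keratin genes Krt8 and Krt18 led, at 2123 ± 73.5 and 1128 ± 17.9 CPM in the controls, and rose 1.37-fold and 1.64-fold. Slc22a6 and Aqp2, transporters of the mature proximal tubule and collecting duct, had 0 counts in all libraries. Aqp1, which encodes a water channel, rose 3.14-fold. Leukocytes also respond to IFNγ. Of 13 leukocyte markers 11 were tested and 0 were called by edgeR or DESeq2, beside 36.6% by edgeR over all genes tested. By edgeR, 1 had an unadjusted p under 0.05. In the controls 10 of the 13 had a mean under 5 CPM, and the 95% log2 interval of Cd52 was -0.84 to 0.95. The count of 0 therefore does not show that these markers were unchanged. Their summed level was 52 to 60.6 CPM in the controls and 50.9 to 52.1 in the knockout, with Cd3e at 0 counts. Csf1r was the most abundant of them at 23.4 ± 2.41 and 19.5 ± 1.75 CPM (adjusted p = 0.0689, edgeR), and it was called lower with library totals in place of TMM. Its exons overlap those of Hmgxb3 on the opposite strand. Fibroblast markers summed to 80.1 to 85.5 CPM in the controls and 83.7 to 96.6 in the knockout, with 2 of 6 higher and 1 lower and Lum at 0 counts. Their share called was 50%, beside 36.6% over all genes tested. The number of fibroblast markers called, 3, was 1 without control replicate 2, knockout replicate 2 or knockout replicate 3, and 0 without control replicate 3. Endothelial markers summed to 2.82 to 3.64 CPM in the controls and 10.7 to 12.7 in the knockout, and all 7 were under 5 CPM in the controls. Of 2 tested, 1 was called, Kdr, which rose 5.59-fold from 1.45 ± 0.447 to 8.07 ± 1.32 CPM (SD, n = 3). The summed rise was thus mostly that of Kdr, and 0 endothelial markers were called among genes with a mean of at least 5 CPM. The part of these cells and of the tubule markers in the values of the receptor and signalling genes was not tested.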

How the data were processed

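RNA was sequenced from 3 control and 3 knockout libraries, grouped by title. The authors deposited estimated counts per gene, not normalised, and TPM, normalised to the same sum in each library. Per the submitters' processing notes, featureCounts, Salmon and the mm10 build were used, without versions or roles. No source used here states the annotation release or the strand setting.

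Estimated counts were rounded, filtered with filterByExpr (13755 of 55487 genes kept), scaled with TMM and tested with edgeR 4.0.16 in R 4.3.3, knockout against control without covariates, with Benjamini-Hochberg adjustment. SE is the log2 fold change divided by the square root of its F statistic. Alternatives used limma 3.58.1 and DESeq2 1.42.0, other scalings and filters, log2(TPM + 1) and log2(TPM + 0.1), and leaving out each library. Fits were tested on simulated counts. In the TPM fits the added pseudocount shrinks the fold changes of genes with low TPM. Depth was 8961779 to 10774195 counts a library, where 3 counts equal 0.278 to 0.335 CPM. Intervals cover counting error and the spread between libraries only.

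The 9 genes, 13 further lists and all tests were chosen with earlier results of these data known. Besides the 9 genes and Elf3, each list was represented by the called genes of lowest p-value, at most 4, or by 2 genes where none was called, and by the most alike genes given in the closing section. Ifnar1, Ifnar2, Ciita, Il6st and Lifr were added after their values were seen. Some genes of the lists, and the counts of the list of other JAK and STAT genes, are not reported here. Positions are from GENCODE M21 and promoter windows from RefSeq, all 9 genes matching both.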

Additional observations from a re-analysis of the deposited data

How the results depend on the processing

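With counts, the 6 calls among the 9 genes held under every alternative scaling, filter and tool and without any 1 library. With limma on TPM, 3 of the 9 were called with either pseudocount on filtered genes and 2 without a filter. Stat2 was lost in these 3 settings (log2 -0.28, -0.31 and -0.28; adjusted p = 0.365, 0.354 and 0.503), as were Irf1 (0.30, 0.31 and 0.30; 0.051, 0.0511 and 0.0764) and Irf9 (-0.38, -0.40 and -0.38; 0.0544, 0.0512 and 0.0857). Ifngr2 was lost only without a filter (0.39; 0.0648). Over all genes TPM gave 2712, 2716 and 2175 calls beside 5028, and over the 121 tested genes of the pathway and target lists 29, 30 and 26 beside 54. The cause was not tested. Without 1 library, Jak2 ranged from 0.067 to 0.20 and the calls among the 9 genes from 6 to 7. The Irf9 to Stat2 log2 ratio was -0.09, 0.12 from counts and -0.33 to 0.15 without 1 library, so its sign was not stable.

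Replicate numbers gave no sign of pairing the libraries, though this check cannot exclude paired cultures or mice. Same-numbered libraries correlated at 0.0049, 0.0076 and 0.0068 in their deviations from the group means, and 0 of 6 libraries correlated best with its own number. With the replicate number as a block, 5146 genes, 53 list genes and 6 of the 9 were called, and the receptor ratio kept its difference (two-sided exact sign-flip p = 0.25, the smallest that 3 pairs allow). Socs1, with 60 counts over the controls and a log2 interval of -0.22 to 1.15, could not be tested among genes with a mean of at least 5 CPM, nor could the rarer genes of the lists.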

Other observations

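The genes whose pattern over the 6 libraries was most like that of Ifngr1 were Cd99l2, Hspb1 and Rbm47, among 10559 named genes with a mean of at least 5 CPM. Likeness was the root mean square difference of log2 CPM after centring each gene, which was 0.03 for all 3. Their log2 fold changes were -0.73, -0.71 and -0.76. For Ifngr2 the most alike genes were Psmc2, a subunit of the proteasome, Golph3, a Golgi protein, and Cep170, a centrosomal protein, each at 0.03, with log2 fold changes of 0.44, 0.37 and 0.41. For Socs1, whose counts were low, the most alike genes were Ndrg3, Pold4 and Nthl1, at 0.13, 0.15 and 0.16, with log2 fold changes of 0.31, 0.28 and 0.10. With 2 groups of 3 libraries, many genes share such a pattern.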
